A study of Homo sapiens with 8 samples.

Results

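The difference between the selumetinib responses of CCNB1-positive and CCNB1-negative HT29 cells was measured for 14219 of the 38148 genes in the table, those whose log2 values averaged 4.58 or more in the 8 libraries. HT29 cells are an established human line from a colorectal tumour, and selumetinib blocks MEK, the kinase upstream of ERK1/2. Cells were left untreated or given 1 μM selumetinib for 24 h, fixed with glyoxal, stained for cyclin B1 (CCNB1) and sorted by flow cytometry into CCNB1-negative and CCNB1-positive fractions, and each of the 4 combinations of treatment and fraction has 2 mRNA-seq libraries. All groups are 1 cell line, and nothing in the labels says that the 2 libraries of a group came from separate cultures, so p-values measure the spread between these libraries, which may be technical. For each gene the interaction is the response in CCNB1-positive cells minus the response in CCNB1-negative cells, on the log2 scale, where 1 is a 2-fold difference. It equals the difference between the fractions under selumetinib minus the difference between the fractions in untreated cells, so a gene can reach a given interaction because the fractions differed before treatment, because they came to differ in drug, or both. Just outside the limit on the mean stood CYP4A22-AS1 at 4.5786, and just inside it AC005052.2 at 4.5805.

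The reads on genes numbered between 12696860 and 23916160 per library and were fewest in the selumetinib CCNB1-negative group. Reads from the mitochondrial genome took 4.44% to 7.80% of the libraries of untreated cells and 11.9% to 14.8% of those of treated cells. They were left out of the scaling only together with MALAT1, in a fit given at the end, and their own part in the results was not tested. All 14 markers of colorectal epithelium were at a mean of 1 RPM (reads scaled to the total of the library) or more, as were 3 of 16 markers of other cell types, LYZ, CD68 and COL1A1. The summed level of the 16 was 929 to 1097 RPM in untreated CCNB1-negative, 919 to 1017 in untreated CCNB1-positive, 317 to 511 in selumetinib CCNB1-negative and 516 to 686 in selumetinib CCNB1-positive libraries. The sample titles contradict the descriptions and column names in both treatment and fraction, and the descriptions and column names are followed here. The interaction of a gene is the same under both, but under the titles the untreated and the treated fraction difference would trade places and change sign, so that a gene higher in CCNB1-positive cells here would be lower in them. CCNB1 mRNA (ENSG00000134057) was at 11.66 and 12.01 in untreated CCNB1-negative, 13.79 and 14.05 in untreated CCNB1-positive, 7.92 and 7.22 in selumetinib CCNB1-negative and 12.76 and 12.53 in selumetinib CCNB1-positive cells, all as log2 values, so both CCNB1-positive fractions held more of it than the CCNB1-negative fraction of the same treatment. Under the titles, both CCNB1-positive fractions would hold less of it. DUSP6, the ERK phosphatase whose transcription ERK drives, fell in both fractions, by 1.75 and 1.06 on the log2 scale (limma, adjusted p 2.2e-06 and 0.00033), and its interaction of 0.69 ± 0.28 (SE) was not called (adjusted p = 0.18).

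Cyclin B1 protein accumulates in G2 and is destroyed at the end of mitosis, so that a CCNB1-positive sort holds mainly G2 and early mitotic cells and a CCNB1-negative sort mainly cells in G1 and S phase. MEK inhibition lowers cyclin D and holds most cells before S phase, and transcription of cell cycle genes comes in waves. In the first wave, E2F factors released from RB family proteins drive genes for cyclin E, deoxynucleotide supply and replication late in G1. In a later wave, the MuvB complex with MYBL2 and FOXM1 drives mitotic genes through a promoter element called CHR (cell cycle genes homology region), often beside CCAAT boxes, which bind NF-Y.

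The responses differed between the fractions for 758 genes, 5.33% of those tested (limma, adjusted p under 0.05). The interaction was positive for 709 of them (4.99% of genes tested), which fell less or rose more in CCNB1-positive cells, and negative for 49 (0.345%). Selumetinib changed 74.1% of all genes in CCNB1-negative cells, where 35.8% fell and 38.2% rose, and 65.3% in CCNB1-positive cells, where 27.3% fell and 38% rose. Of the 709 genes, 414 fell in both fractions, 221 fell in CCNB1-negative cells while the change in CCNB1-positive cells was not called, and 48 fell in CCNB1-negative and rose in CCNB1-positive cells. Their median response was -2.14 in CCNB1-negative cells against -0.59 in CCNB1-positive cells, on the log2 scale, and the medians of all genes were 0.05 and 0.17. In CCNB1-negative cells 419 of the 709 fell past 4-fold, 59.1% against 5.49% of all genes. In CCNB1-positive cells 485 of them stayed within 2-fold of the untreated level, 68.4% against 65.3% of all genes. Both responses enter the interaction, so these medians and shares follow in part from how the 709 were chosen. The 49 genes with a negative interaction included 43 that rose in both fractions, with a median of 3.01 in CCNB1-negative cells against 1.72 in CCNB1-positive cells. In bulk libraries of sorted cells, fewer cells that express a gene and less mRNA per cell cannot be told apart.

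The direction of the calls depended on the scaling. With quantile normalization 1062 genes were called, 70.9% of them positive against 93.5% with the deposited scaling, and the median interaction of all genes moved by -0.12 to -0.01. Of the 758 genes, 717 were also called there. The model takes no account of a pairing of the 2 fractions. With a block for each pair, by treatment and replicate number, 3850 genes were called, 71.1% of them positive, and all 758 were among them. The count also depended on single libraries: it was 1806 without selumetinib CCNB1-negative replicate 1, 489 without untreated CCNB1-negative replicate 2 and 497 without selumetinib CCNB1-positive replicate 2, and between 479 and 738 of the 758 genes were called whichever library was left out. At the edge of the call, MOCOS was called with an adjusted p of 0.0499 and EVI5 was not with 0.0502.

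The called genes were separated by the fraction differences that make up the interaction. In untreated cells the fractions differed at 408 genes (2.87% of those tested), and in treated cells at 3077 (21.6%). Among the 758 genes, 532 differed between the fractions under selumetinib alone, 32 in untreated cells alone, 169 in both and 25 in neither at the threshold used. The p-values of the 2 differences were adjusted separately, so with more calls in treated cells a smaller difference could pass there. RANBP6 had an untreated difference of -0.77 at adjusted p = 0.093 and a treated one of 0.60 at adjusted p = 0.066 (limma). This can move genes into the class under selumetinib alone. The 169 held 125 genes whose difference kept its sign and grew, all higher in CCNB1-positive cells, called widened below, and 44 whose difference changed sign, called crossed. Measured by size instead, the untreated difference made up at least 50% of the interaction for 75 genes and less for 683, and for 347 of the latter it pointed the other way. The classes are cut from the same values as the interaction, so their sizes are a description. Under the titles, the 532 genes would be those that differed in untreated cells alone, the 32 those that differed under drug alone, and the 125 would be lower in CCNB1-positive cells with a difference that shrank under drug. In that reading CCNB1 mRNA itself would be lower in both CCNB1-positive fractions, and DUSP6 would rise under selumetinib.

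**Figure D1:**
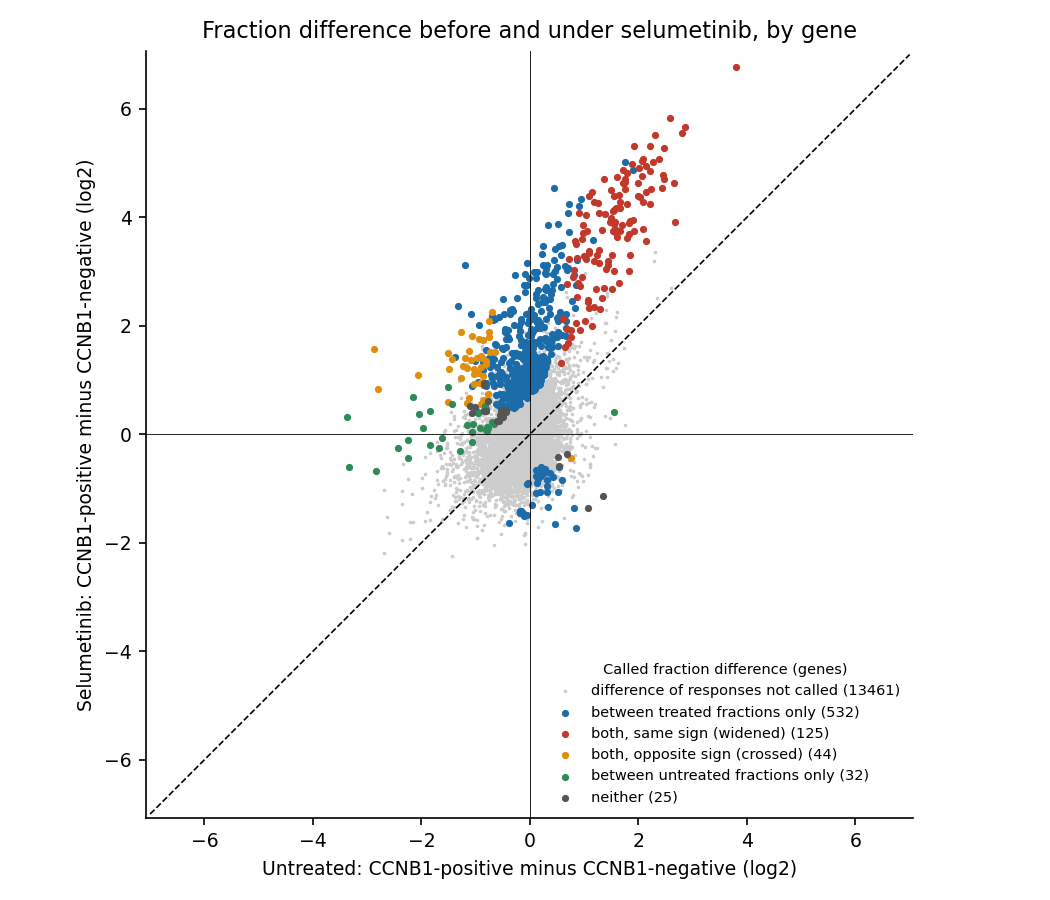
Difference between CCNB1-positive and CCNB1-negative cells in untreated cells (x axis, log2) against the same difference under selumetinib (y axis, log2), 1 point per gene of the 14219 tested, coloured by which of these differences was called. On the dashed line the interaction is 0, and the 125 widened genes lie far above it at the right, the 44 crossed genes at the upper left except KDM5B, and the 32 genes called in untreated cells alone near the horizontal axis at the left except SMTN.

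Promoters of the crossed and of the widened genes carried different motifs, and 4 are printed here because they show the contrast. The bases are the 120 before the RefSeq start of each gene on GRCh38.p14, written 5′ to 3′ on the strand of the gene, with matches to the motifs in capitals. E2F1 and E2F2 are crossed genes that encode the factors themselves (E2F2, with an interaction of 4.44, was chosen after its value was seen), at chr20:33686386-33686505 and chr1:23531234-23531353, both on the minus strand. CDC20 and DEPDC1 are widened genes, the first the activator of the anaphase-promoting complex, at chr1:43358861-43358980 on the plus strand and chr1:68497083-68497202 on the minus strand.
E2F1: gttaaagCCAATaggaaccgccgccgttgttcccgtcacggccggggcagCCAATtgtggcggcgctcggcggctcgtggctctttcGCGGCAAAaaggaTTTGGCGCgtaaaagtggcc
E2F2: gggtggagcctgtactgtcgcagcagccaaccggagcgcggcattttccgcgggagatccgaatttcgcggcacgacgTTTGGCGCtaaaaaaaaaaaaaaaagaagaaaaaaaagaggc
CDC20: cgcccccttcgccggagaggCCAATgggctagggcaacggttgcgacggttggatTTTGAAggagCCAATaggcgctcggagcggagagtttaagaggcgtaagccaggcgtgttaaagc
DEPDC1: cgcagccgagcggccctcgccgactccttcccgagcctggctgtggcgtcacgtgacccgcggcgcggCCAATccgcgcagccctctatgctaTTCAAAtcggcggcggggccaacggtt

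The E2F motif searched was TTTCCCGC, TTTCGCGC, TTTGCCGC or TTTGGCGC, the CHR motif TTTGAA and the CCAAT box CCAAT, each on both strands, and no motif contains another. E2F1 held E2F matches 33 and 20 bases before the start and CCAAT boxes 113 and 70 bases before it. In CDC20 the CHR match, 65 bases before the start, lay between CCAAT boxes 100 and 55 bases before it. Not every promoter followed the contrast: in the same 120 bases the widened CCNB1 and BUB1 held no CHR match, and the crossed CDC6 and FEN1 no E2F match. The search took the exact letters above, so sites with other letters would be missed. Over the window from 250 bases before to 50 after the canonical start of each gene in GENCODE release 44, available for 14146 of the genes tested, the E2F motif was in 5.13% of all promoters, the CHR motif in 9.996% and the CCAAT box in 36.3%. Of the 43 crossed genes with a positive interaction, 46.5% held the E2F motif and 9.30% the CHR motif. Of the 125 widened genes, 7 held the E2F motif and 71.2% the CHR motif, and 60.0% held a CHR motif and a CCAAT box against 4.38% of all promoters. The CCAAT box was in 80% of the widened and 67.4% of these crossed genes, so both classes held it more often than all promoters. The 490 genes with a positive interaction that differed under drug alone lay between, with the E2F motif in 13.7% and the CHR motif in 16.9%. Of the 42 with a negative interaction that differed under drug alone, 0 held the E2F motif and 21.4% the CHR motif, so a raised CHR share was not limited to positive interactions. The median share of G and C was 57.7% in these 42 promoters, 61.7% in the widened ones and 65.3% in all. The part of base composition in the motif shares was not tested. A match is a description of letters, not a bound site, and no test was made on these shares.

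**Figure D2:**
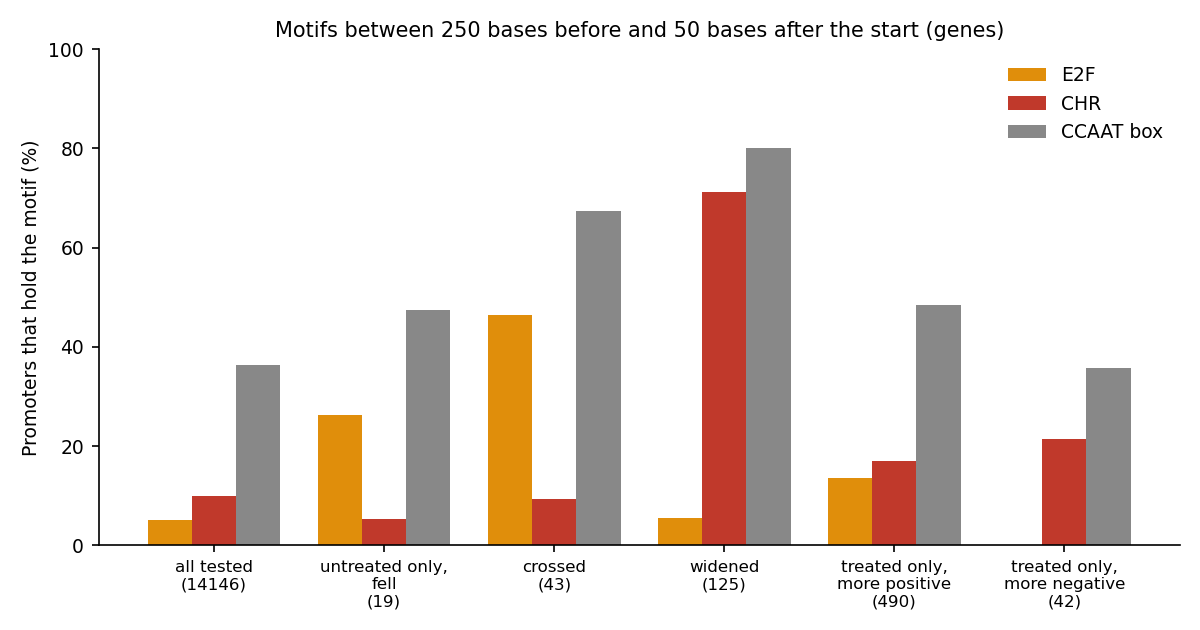
Share of promoters (%, y axis) that hold the E2F motif, the CHR motif or the CCAAT box between 250 bases before and 50 after the start, for all genes tested and for classes of genes with a different response (x axis, number of promoters in parentheses). The E2F bar is highest for the 43 crossed genes at 46.5%, and the CHR and CCAAT bars are highest for the 125 widened genes, the CHR bar at 71.2%.

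The widened genes were largely genes of mitosis: 69 of the 125 were among the 121 tested in the 6 lists on mitosis, and 0 among the 81 in the 4 lists on replication. Their median difference between the fractions was 1.54 in untreated and 3.86 in treated cells, on the log2 scale, and they had a median response of -2.56 in CCNB1-negative cells against -0.49 in CCNB1-positive cells. For 109 of the 125 the level in treated CCNB1-positive cells was within 2-fold of that in untreated CCNB1-positive cells. CDC20 (ENSG00000117399, chromosome 1, 43358981 to 43363203) had log2 values of 11.50 and 11.46 in untreated CCNB1-negative, 13.32 and 13.47 in untreated CCNB1-positive, 7.62 and 7.20 in selumetinib CCNB1-negative and 12.78 and 12.68 in selumetinib CCNB1-positive cells. The 4 groups did not overlap, and the selumetinib CCNB1-negative libraries lay far below the other 6. Its interaction was 3.41 ± 0.22 (SE; limma, adjusted p = 3.56e-06), made of an untreated difference of 1.91 and a treated difference of 5.32.

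DEPDC1 (ENSG00000024526, chromosome 1, 68474152 to 68497221), a gene of the cytokinesis list, stood at 8.64 and 8.07 in untreated CCNB1-negative, 10.92 and 10.95 in untreated CCNB1-positive, 4.82 and 4.76 in selumetinib CCNB1-negative and 10.54 and 10.70 in selumetinib CCNB1-positive cells, with an interaction of 3.26 ± 0.28 (adjusted p = 5.95e-06). Its low values are 18 and 16 reads. In CCNB1-positive cells its change of -0.31 was not called (adjusted p = 0.18), while in CCNB1-negative cells it fell by 3.57.

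Of 19 genes for CDK1, the A and B cyclins and mitotic entry, 18 had a positive interaction, 16 of them widened, with BUB1, CDK1 and CCNB1 at 3.16, 3.14 and 2.99, while PKMYT1, the kinase that restrains CDK1, differed under drug alone (2.86). All 14 cytokinesis genes passed, 13 as widened, and the exception SHCBP1, a partner of centralspindlin, differed under drug alone (3.38). Of 11 mitotic kinesins 10 passed and all 10 were widened, with KIF4A, KIF14, KIF20B and KIF20A between 2.74 and 2.84. Over all genes tested, 4.99% had a positive interaction, and 125 of 14219 were widened.

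The spindle checkpoint and anaphase-promoting complex list had 13 of 16 genes with a positive interaction (81.25%, against 4.99% of all genes). Of the 13, 8 were widened, among them PTTG1 (securin, which holds separase back) at 3.29 and UBE2C, the E2 enzyme of that complex, at 2.81. MAD2L1, the checkpoint protein MAD2, differed under drug alone (2.94). Among 40 passenger complex and kinetochore genes 35 passed, and they were divided between 17 widened, 16 under drug alone and 2 crossed. NUF2, of the kinetochore complex that binds microtubules, was widened (3.34), while CENPW, SKA1 and CENPM were called under drug alone (3.37, 3.31 and 3.22). Of 21 condensin and cohesin genes 13 passed. The condensin subunits NCAPG and NCAPH (3.09 and 3.01) and TOP2A (2.68), which untangles sister chromosomes, were widened, and CDCA5, the cohesin protector sororin, was not (2.77).

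**Figure D3:**
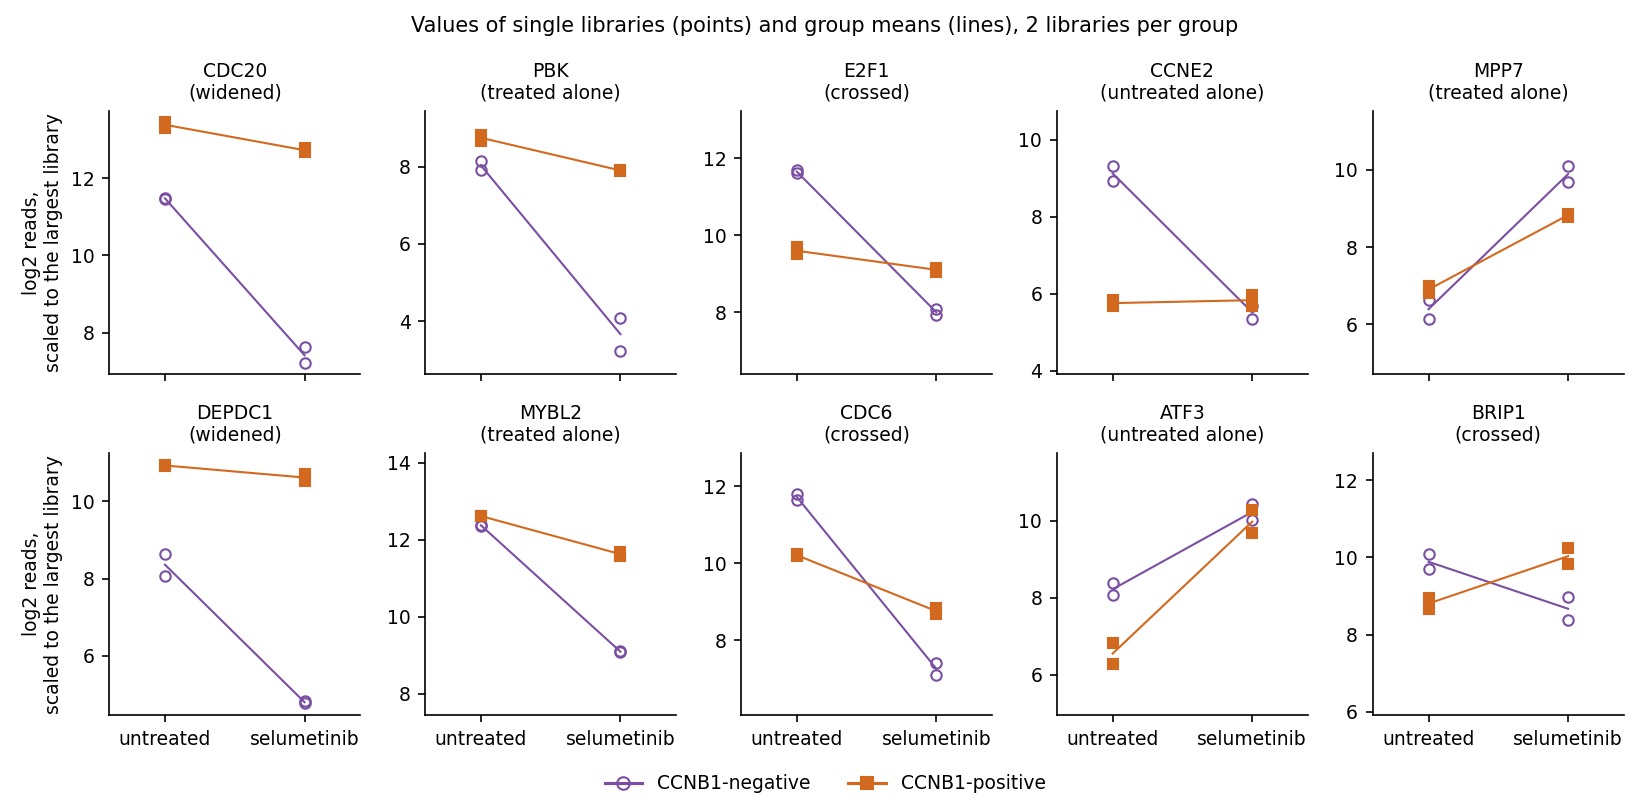
Log2 values (reads scaled to the largest library, y axis) of 10 genes in untreated and selumetinib-treated cells (x axis), with open circles for CCNB1-negative and filled squares for CCNB1-positive libraries, 2 per group, and lines through group means. Each panel spans the same number of log2 units: the lines part under drug for CDC20, DEPDC1, PBK and MYBL2, cross for E2F1, CDC6 and BRIP1, and meet under drug for CCNE2 and ATF3.

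The crossed genes held 21 of the 81 genes tested in the replication lists and 2 of the 121 in the mitosis lists. All but 1 of them were lower in CCNB1-positive than in CCNB1-negative cells before treatment and higher under drug, with median differences of -0.96 and 1.27 on the log2 scale for those 43. E2F1 (ENSG00000101412, chromosome 20, 33675477 to 33686385), an activator of S phase genes, was at 11.69 and 11.61 in untreated CCNB1-negative, 9.69 and 9.50 in untreated CCNB1-positive, 7.93 and 8.07 in selumetinib CCNB1-negative and 9.05 and 9.15 in selumetinib CCNB1-positive cells. Its interaction was 3.15 ± 0.21 (adjusted p = 3.94e-06), the sum of an untreated difference of -2.05 with its sign turned and a treated difference of 1.10. The treated CCNB1-positive libraries lay below both untreated fractions and above the treated CCNB1-negative libraries, so a comparison of the treated fractions alone shows a rise and a comparison with untreated cells shows none.

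CDC6 (ENSG00000094804, chromosome 17, 40287879 to 40304657), which loads the MCM helicase at origins, stood at 11.64 and 11.81, 10.23 and 10.19, 7.11 and 7.42, and 8.68 and 8.84 in the same order of groups. It fell in both fractions, by 4.46 and 1.45, and its interaction was 3.01 ± 0.23 (adjusted p = 4.12e-06). FAM111B, which encodes a protease and is expressed in S phase, had the largest interaction of the class among genes with a mean of at least 6, 3.63 ± 0.23 (adjusted p = 3.56e-06). Its values of 8.56 and 8.62 in untreated and 8.66 and 8.54 in treated CCNB1-positive cells overlapped, so the interaction was the fall from 11.29 and 11.49 to 7.68 and 7.86 in CCNB1-negative cells.

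Among 19 origin licensing and MCM genes 13 had a positive interaction (68.4%, against 4.99% of all genes), 8 crossed and 5 under drug alone. Their list had a median response of -2.89 in CCNB1-negative cells against -0.89 in CCNB1-positive cells. MCM5 and MCM10 were crossed (2.70 and 2.60), and ORC6, of the origin recognition complex, was called under drug alone (2.59). Of 37 replication fork and polymerase genes 31 passed, 8 as crossed, which included GINS2 (2.88), the fork protector CLSPN (2.82) and the flap nuclease FEN1 (2.64), whose gene model overlaps FADS2. RFC3, of the clamp loader, was called under drug alone (2.59). Of 14 genes of replication-coupled chromatin 13 passed, and the histone chaperone subunit CHAF1A (2.24) was crossed while ASF1B (3.05) was not. In the E2F and G1 cyclin list 10 of 20 passed, with 4 under drug alone, 3 crossed, 2 in untreated cells alone and 1 widened. E2F8, like E2F7 a repressor of E2F targets, was called under drug alone (2.79).

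**Figure D4:**
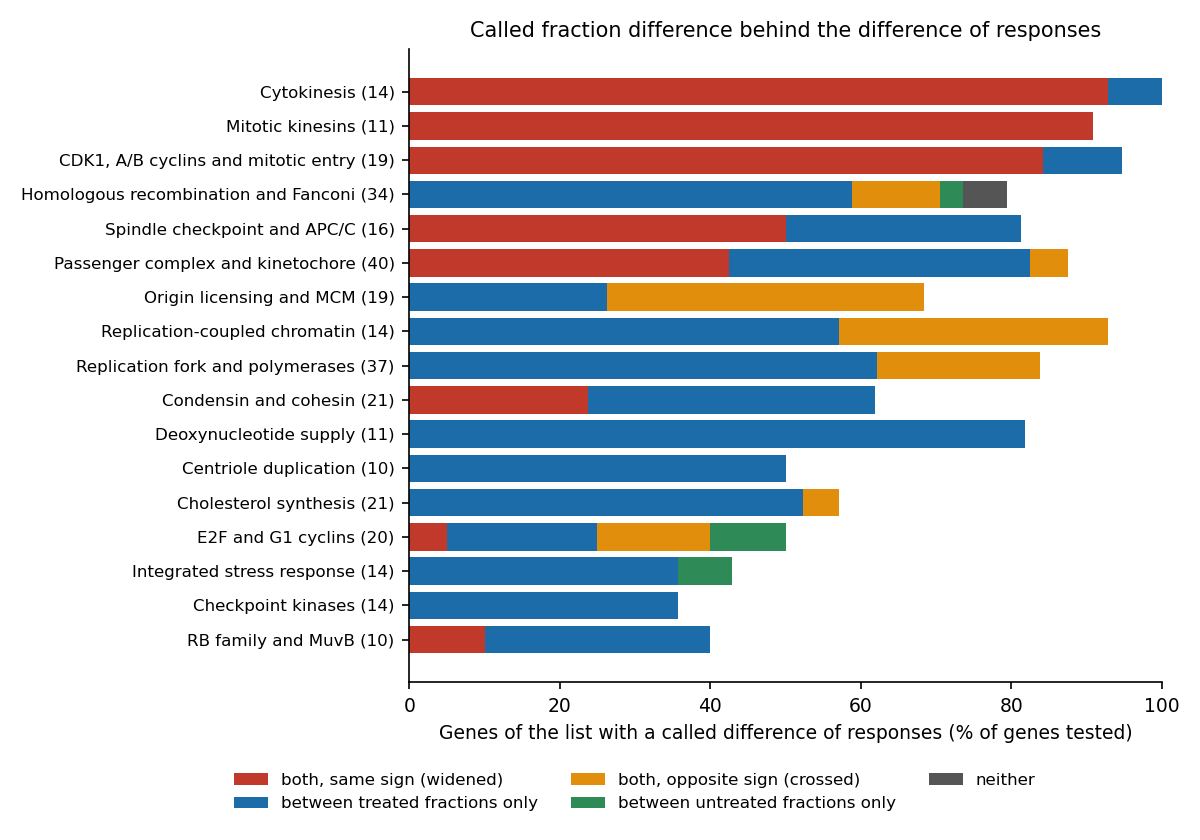
Share of the genes tested in each list (%, x axis; number tested in parentheses) that had a different response in the 2 fractions, split by which fraction difference was called, for lists with more than 2 such genes. Widened genes make up most of the calls in the lists for cytokinesis, mitotic kinesins and mitotic entry, crossed genes 8 of 13 in Origin licensing and MCM, and all 9 calls in Deoxynucleotide supply are under drug alone.

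The 490 genes with a positive interaction that differed under drug alone included 32 genes of the mitosis lists, 45 of the replication lists and 20 of the recombination list. Their median difference between the fractions was -0.06 in untreated and 1.19 in treated cells. PBK, a mitotic kinase, had log2 values of 7.92 and 8.16 in untreated CCNB1-negative, 8.67 and 8.84 in untreated CCNB1-positive, 3.24 and 4.08 in selumetinib CCNB1-negative and 7.91 and 7.90 in selumetinib CCNB1-positive cells. Only the selumetinib CCNB1-negative libraries, with 6 and 10 reads, stood apart from the other 6, and the interaction was 3.53 ± 0.39 (adjusted p = 4.54e-05). The untreated difference of 0.72 was in the same direction and did not pass (adjusted p = 0.25), so a gene of this class may still differ between untreated fractions.

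DDIAS (ENSG00000165490, chromosome 11, 82899975 to 82958277), a gene linked to survival after DNA damage, was at 8.94 and 9.02, 9.31 and 9.32, 4.46 and 4.22, and 8.02 and 8.36 in the same order of groups, and had an interaction of 3.51 ± 0.29 (adjusted p = 5.2e-06). E2F7 had the largest interaction of the class among genes with a mean of at least 6, 3.69 ± 0.49 (adjusted p = 0.00021), with selumetinib CCNB1-negative libraries as far apart as 4.74 and 6.08. Its untreated difference of -1.32 missed the threshold (adjusted p = 0.061). DHRS2, a short-chain dehydrogenase, had an interaction of 3.39 ± 0.65 (adjusted p = 0.0053).

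Of 11 genes of deoxynucleotide supply 9 passed (81.8%, against 5.33% of all genes), all 9 under drug alone. TK1, TYMS, DTYMK and RRM2, which make the precursors of DNA, had interactions between 1.98 and 2.76, and their untreated differences lay between -0.34 and 0.35. TK1 was at 12.65 and 12.52 in untreated CCNB1-negative, 12.66 and 12.71 in untreated CCNB1-positive, 9.56 and 8.86 in selumetinib CCNB1-negative and 12.20 and 11.96 in selumetinib CCNB1-positive cells. Of 34 homologous recombination and Fanconi genes 27 passed, 20 of them under drug alone, among them EME1 (3.23), BARD1 (2.87) and UBE2T (2.85), with RMI2 crossed (3.16). That list had a median response of -2.12 in CCNB1-negative cells against -0.12 in CCNB1-positive cells.

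Among 10 genes of the RB family and MuvB, 4 passed (40%, against 5.33% of all genes): FOXM1 was widened (2.87), and MYBL2 (2.29), LIN9 (1.46) and RBL1 (1.20) were called under drug alone, with RBL1 at the edge (adjusted p = 0.0495). Of 8 CDK inhibitor genes 2 passed (25%), CDKN3 (3.33) and CDKN2C (2.80), both widened. CDKN3 encodes a phosphatase that rises in mitosis, and CDKN2C an inhibitor of the cyclin D kinases. Among 14 checkpoint kinase genes 5 passed (35.7%), CHEK1 (1.79), MDC1 (1.24), WEE1 (1.20), RAD1 (1.17) and TOPBP1 (1.15), all under drug alone. Of 10 centriole duplication genes 5 passed (50%), under drug alone, with PLK4, the kinase that starts duplication, at 2.80 and CENPJ, STIL, CEP152 and SASS6 at 2.25, 1.65, 1.53 and 1.46.

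The 32 genes that differed in untreated cells alone divided by what selumetinib did to them in CCNB1-negative cells. Of the 31 with a positive interaction 19 fell there, 7 rose and 5 were not called. CCNE2, which encodes cyclin E2, was at 8.94 and 9.32 in untreated CCNB1-negative cells and at 5.83 and 5.69, 5.69 and 5.35, and 5.69 and 5.98 in untreated CCNB1-positive, selumetinib CCNB1-negative and selumetinib CCNB1-positive cells. The untreated CCNB1-negative libraries stood apart and the other groups overlapped. The interaction of 3.68 ± 0.39 (adjusted p = 3.02e-05) was for 91.4% the untreated difference. In treated cells the fractions differed by 0.32 (adjusted p = 0.43).

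DTL (ENSG00000143476, chromosome 1, 212035553 to 212107400), a substrate receptor that marks licensing factors for destruction in S phase, was also highest in untreated CCNB1-negative cells, with 10.73 and 10.84 there and 8.65 and 8.60, 7.14 and 8.22, and 8.26 and 8.49 in the other groups, and an interaction of 2.85 ± 0.37 (adjusted p = 0.00019). Its other groups did not overlap, and its treated difference of 0.69 missed the threshold (limma, adjusted p = 0.074). WDR76 followed with 2.40 ± 0.34 (adjusted p = 0.00046) and RIBC2 with 2.27 ± 0.43 (adjusted p = 0.0053), and RIBC2 also rose by 1.11 in CCNB1-positive cells. CCNE1, UNG and SLBP, chosen after their values were seen, belong here too: cyclin E1 had an interaction of 2.17, the uracil glycosylase UNG 1.55 and the histone mRNA binding protein SLBP 1.36. All of these genes had their highest mean in untreated CCNB1-negative cells.

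The 7 that rose in CCNB1-negative cells rose more in CCNB1-positive cells, from a lower untreated level. ATF3 (ENSG00000162772, chromosome 1, 212565334 to 212620777), a stress-induced transcription factor, was at 8.37 and 8.07 in untreated CCNB1-negative, 6.82 and 6.28 in untreated CCNB1-positive, 10.42 and 10.03 in selumetinib CCNB1-negative and 10.28 and 9.67 in selumetinib CCNB1-positive cells. The treated fractions overlapped, and the interaction of 1.42 ± 0.34 (adjusted p = 0.025) came from untreated cells; with quantile normalization it was not called (adjusted p = 0.091). NUPR1, a small stress protein, had an interaction of 2.38 ± 0.44 (adjusted p = 0.0038), from 25 and 14 reads in untreated CCNB1-positive cells. SMTN (smoothelin, an actin-binding protein) was the only gene of the 32 with a negative interaction, -1.14, and was chosen after its value was seen.

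Genes called by their untreated difference were then followed into the treated libraries, which entered the call only through the spread that all groups share. Of the 194 genes higher in untreated CCNB1-positive cells (1.36% of those tested), 185 were also higher in treated CCNB1-positive cells, 95.4% against 13.8% of all genes, and genes higher in both make up 1.3% of those tested. Their median difference was 1.37 in untreated and 3.04 in treated cells. Of the 214 genes lower in untreated CCNB1-positive cells (1.51%), 58 were lower under drug, 43 higher and 113 not called, which are 27.1%, 20.1% and 52.8% of them, against 7.87% lower and 13.8% higher among all genes. Genes lower in untreated and higher in treated CCNB1-positive cells make up 0.302% of those tested. Their median difference was -1.06 in untreated and -0.37 in treated cells. A difference in favour of CCNB1-positive cells was thus found again under drug for most of its genes, and one in favour of CCNB1-negative cells for a minority.

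Opposite responses were called for 48 genes (0.338% of those tested), and all of them fell in CCNB1-negative and rose in CCNB1-positive cells. BRIP1 (ENSG00000136492, chromosome 17, 61681266 to 61863521), a helicase of the Fanconi pathway, was at 10.09 and 9.69 in untreated CCNB1-negative, 8.95 and 8.66 in untreated CCNB1-positive, 8.37 and 8.97 in selumetinib CCNB1-negative and 9.82 and 10.24 in selumetinib CCNB1-positive cells. It fell by 1.22 (adjusted p = 2e-04) and rose by 1.23 (adjusted p = 0.00029), with an interaction of 2.45 ± 0.31. TROAP, a spindle protein, fell by 2.45 and rose by 0.51 (adjusted p = 0.038), and KIF18B, a mitotic kinesin, fell by 1.92 and rose by 0.66 (adjusted p = 0.029). RDM1 rose by 0.76 and the non-coding MIR924HG by 1.52 in CCNB1-positive cells, with interactions of 2.58 and 2.76. The 48 had a median response of -1.05 in CCNB1-negative cells against 0.70 in CCNB1-positive cells.

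The genes with a negative interaction rose more in CCNB1-negative cells. MPP7 (ENSG00000150054, chromosome 10, 28050993 to 28334486), a cell polarity scaffold, was at 6.14 and 6.64 in untreated CCNB1-negative, 6.98 and 6.82 in untreated CCNB1-positive, 9.69 and 10.10 in selumetinib CCNB1-negative and 8.87 and 8.79 in selumetinib CCNB1-positive cells, with an interaction of -1.57 ± 0.31 (adjusted p = 0.007). ITPR2, an endoplasmic reticulum calcium channel, rose by 4.01 and 2.62 (interaction -1.39 ± 0.28, adjusted p = 0.007). Next came SWT1, CMTM8 and the repressor TGIF2 at -1.42, -1.35 and -1.27. CALN1 (-2.59) and ZNF573 (-2.43) had lower values with means under 6, and were chosen after their values were seen.

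Of the 49, 14 were gene models of the gamma protocadherin cluster on chromosome 5, cell adhesion genes that share their last exons, so that reads cannot be assigned to 1 of them and the cluster counts as a single observation. Its leading members PCDHGB7, PCDHGA11, PCDHGA10, PCDHGB6 and PCDHGB5 had interactions between -1.43 and -1.27 with adjusted p between 0.0291 and 0.0452. The 49 genes were long, with a median span of 124.73 kb against 32.2 kb for all genes, and 33 of them (67.3%) spanned over 100 kb against 19.8% of all. Without the cluster the median of the other 35 was 124.73 kb, and 22 of them (62.9%) spanned over 100 kb. KDM5B, a histone demethylase chosen after its values were seen, was the only one that crossed, at 9.38 and 9.31 in untreated CCNB1-negative, 10.14 and 10.05 in untreated CCNB1-positive, 11.45 and 11.53 in selumetinib CCNB1-negative and 11.14 and 10.97 in selumetinib CCNB1-positive cells (interaction -1.19 ± 0.20, adjusted p = 0.0017). The block for each pair of fractions gave 1111 negative interactions in place of the 49. Leaving out single libraries gave between 6 genes, without selumetinib CCNB1-negative replicate 2, and 369, without selumetinib CCNB1-negative replicate 1, in place of the 49, and quantile normalization gave 309.

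The 25 genes with neither fraction difference called had a median interaction of 0.95 for the 20 positive ones and -1.11 for the 5 negative ones, which reached -2.49. ZNF674-AS1, KHK (fructokinase), RANBP6, NIPBL-DT and the scramblase PLSCR1 led the positive ones with a mean of at least 6, with 1.63, 1.46, 1.37, 1.28 and 1.23. Their untreated differences lay between -1.10 and -0.77 with adjusted p between 0.056 and 0.093, so these genes were close to the untreated class.

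**Figure D5:**
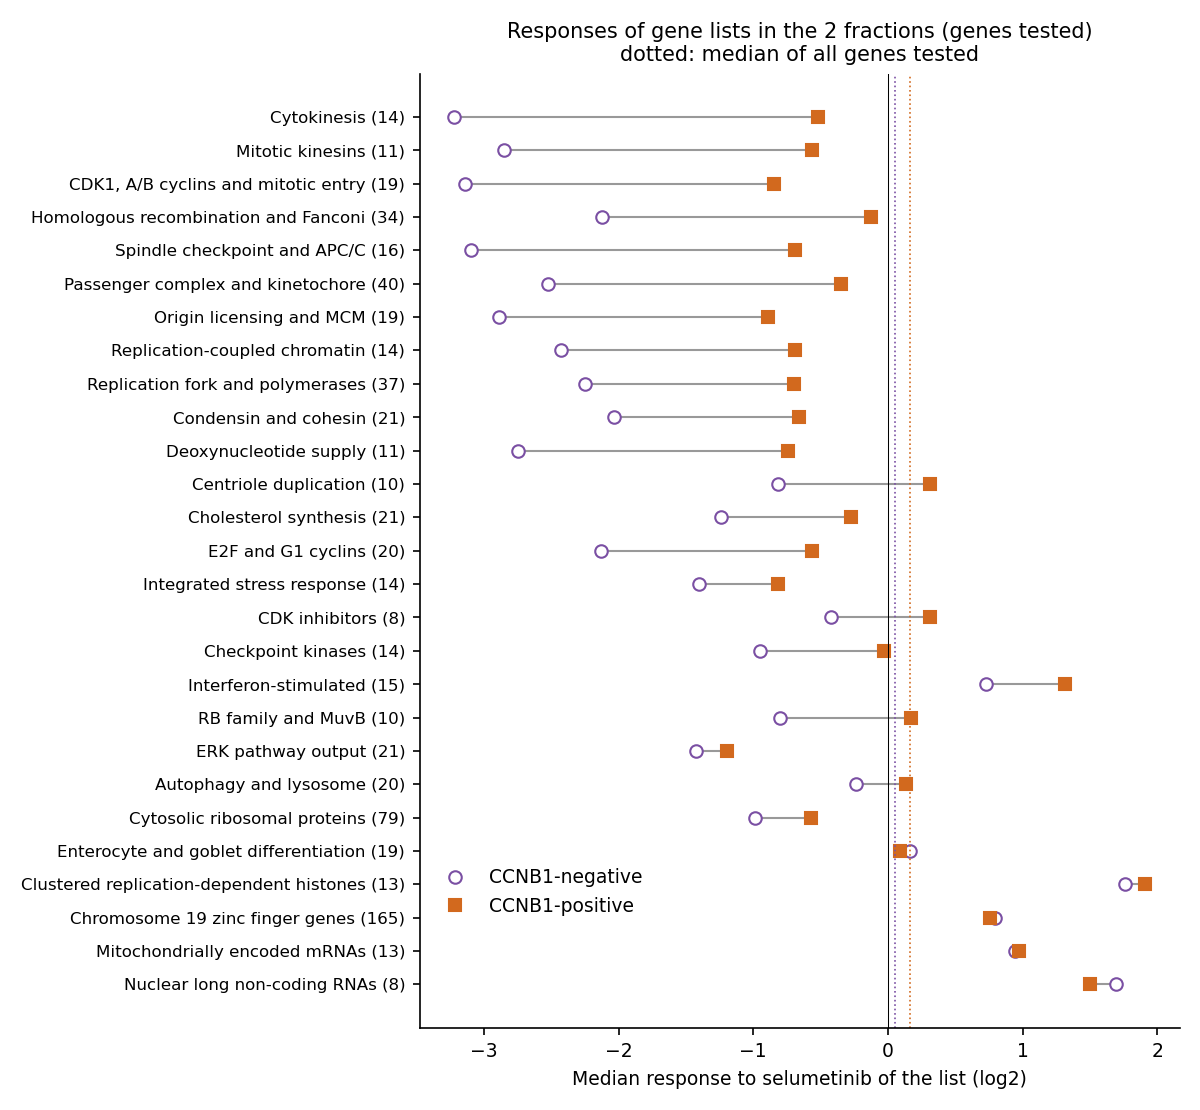
Median response to selumetinib (log2, x axis) of each gene list in CCNB1-negative (open circles) and CCNB1-positive cells (filled squares), lists ordered by their median interaction, with the number of genes tested in parentheses and dotted lines at the median of all genes. The pairs are wide for Cytokinesis, at -3.22 and -0.52, and close for Mitochondrially encoded mRNAs, at 0.95 and 0.97.

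Outside the cell cycle, 12 of 21 cholesterol synthesis genes had a positive interaction (57.1%, against 4.99% of all genes), and the list had a median response of -1.24 in CCNB1-negative cells against -0.28 in CCNB1-positive cells. INSIG1, which retains the sterol sensor, was crossed (2.09), and SQLE, IDI1 and EBP were called under drug alone (1.61, 1.48 and 1.33). Among 14 integrated stress response genes 6 passed (42.9%), and besides ATF3 these included the serine and asparagine synthesis genes PHGDH (1.70) and ASNS (1.07) and the kinase-like TRIB3 (0.97), which fell in both fractions. Of 20 autophagy and lysosome genes GLA (1.74) and NPC1 (1.00) passed, and of 15 interferon-stimulated genes OAS3 (1.71), shares of 10% and 6.67% near the 5.33% of all genes.

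Of 21 ERK pathway output genes 16 fell in the CCNB1-negative fraction and 15 in the CCNB1-positive one, and none had a called interaction in limma. The list had a median response of -1.42 in CCNB1-negative cells against -1.20 in CCNB1-positive cells and interactions between -1.03 and 1.08. At an unadjusted p under 0.05 there were 4, and 0 by limma-voom. FOS was at 0.51 (adjusted p = 0.25). Nor were any called among 79 cytosolic ribosomal protein genes, whose interactions lay between 0.16 and 0.85 with a median of 0.36 against 0.11 for all genes. At an unadjusted p under 0.05 there were 4, and 0 by limma-voom, and for RPL13A and RPS3 the interactions were 0.25 and 0.29. None of 13 histone genes of the replication-dependent clusters, 13 mitochondrially encoded mRNAs or 8 nuclear long non-coding RNAs was called by limma without blocks or by limma-voom, with 3, 0 and 2 at an unadjusted p under 0.05. Of 71 listed histone genes, these 13 passed the limit on the mean. The libraries were selected for poly(A), so histone mRNA without a poly(A) tail would be missed. HIST1H2AC rose by 3.18 and 3.02 and HIST1H2BD by 3.48 and 3.55 in the 2 fractions, so near-equal rises gave interactions of -0.17 and 0.07. MALAT1 and NEAT1 stood at -0.72 ± 0.53 and 0.13 ± 0.38, and MT-ND4 and MT-CO2 at -0.06 ± 0.65 and 0.06 ± 0.54, errors that would hide a 2-fold difference.

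Of 165 zinc finger genes of chromosome 19, 2 were called, which is 1.21% against 5.33% of all genes, with ZNF714 positive (1.31) and ZNF573 negative, and ZNF146 stood at -0.20 (adjusted p = 0.63). The enterocyte and goblet list had 2 of 19 (10.5%), the adhesion glycoproteins CEACAM5 (1.90) and CEACAM6 (1.77), which fell in both fractions by at least 2.15. KRT8, LYZ and CD68 were not called, at 0.54, 0.62 and 0.80. The lists held 247 of the 758 genes, and 463 of the 709 with a positive interaction were in none of them.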

How the data were processed

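mRNA-seq values of HT29 cells, 2 libraries in each of 4 groups, were used. Reads were trimmed (Trim Galore 0.5.0), aligned to GRCh38 (HISAT2 2.1.0) and counted over genes in SeqMonk by the authors. The deposited unit is log2 of reads, with every library scaled to the largest. Genes without a read stand at 0.9 reads. Annotation release and strand handling are not given in the sources used here, and 97 of the 758 called genes overlap another called gene, 77 of them on the same strand. Whole reads were recovered for at least 99.8% of values (tolerance 0.01). They give the depth and carry counting error.

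Conditions follow the descriptions. Values were tested with limma 3.58.1 (R 4.3.3, mean-variance trend, 1 coefficient per group, Benjamini-Hochberg over 14219 genes, two-sided), checked on simulated data. The authors used DESeq2, in place of which limma was used on the deposited log2 values. Python 3.11.15, pandas 2.3.3, numpy 2.4.6, scipy 1.17.1 and matplotlib 3.10.9 were used besides. Promoter letters are from RefSeq. Motif shares use GENCODE release 44 starts, a change made after seeing that the RefSeq table covered 70.0% of genes.

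Members and lists were chosen with earlier results of these data known. Named genes have a symbol and a mean of at least 6: the 10 largest interactions in each direction, 5 per origin class, 5 with opposite responses, and up to 4 called per list, filled to 2 by mean. Not all named by the rule are printed. Alternatives were 2 other normalizations, scaling to nuclear genes without MALAT1 (added later), limma-voom on recovered reads, no filter, 10 RPM, a pseudocount of 0.1 RPM, replicate blocks, a threshold of 0.01 and leaving out each library.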

Additional observations from a re-analysis of the deposited data

Results flagged for a closer look

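The fractions responded differently to selumetinib, by the interaction term of the same model, for 758 genes, and 48 genes were called in opposite directions. Among genes with a mean of at least 6, the largest positive differences of responses, as interactions on the log2 scale, were those of E2F7 (3.69), CCNE2 (3.68), FAM111B (3.63), PBK (3.53), DDIAS (3.51), CDC20 (3.41), DHRS2 (3.39), SHCBP1 (3.38), CENPW (3.37) and NUF2 (3.34). The largest negative ones were those of MPP7 (-1.57), PCDHGB7 (-1.43), SWT1 (-1.42), ITPR2 (-1.39), PCDHGA11 (-1.38), CMTM8 (-1.35), PCDHGA10 (-1.33), PCDHGB6 (-1.29), TGIF2 (-1.27) and PCDHGB5 (-1.27), where the 5 protocadherin models share exons. Of genes whose fractions differed in untreated cells alone, DTL (2.85), WDR76 (2.40), NUPR1 (2.38) and RIBC2 (2.27) followed CCNE2. Among the 48 with opposite responses were TROAP (2.96), MIR924HG (2.76), KIF18B (2.58), RDM1 (2.58) and BRIP1 (2.45). No group had the 4 libraries that a search for single outlying libraries needs.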

How the results depend on the processing

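The median interaction of all genes, 0.11 on the log2 scale as reported, moved to -0.013 with quantile normalization, 0.024 with median-of-ratios size factors and -0.043 without a filter on low values. Quantile normalization gave 309 negative interactions and 870 genes called between treated fractions alone against 17 between untreated fractions alone, and median-of-ratios size factors gave 105 negative interactions, 85.0% of calls positive, and 16 genes in neither class. Without a filter 496 genes were called, 12 of them negative, with 331, 20 and 14 in the treated, untreated and neither classes, and a minimum of 10 RPM gave 15 in neither. With a threshold of 0.01 there were 426 calls, 423 positive and 3 negative, with 280, 19 and 11 in these classes. Sorting by size put 75 genes in the untreated class. With quantile normalization 512 of the 532 genes of the treated class, 14 of the 32 of the untreated class, 31 of the 44 crossed and 107 of the 125 widened kept their class. With median-of-ratios size factors 415, 23, 38 and 121 did. Over the leave-one-out fits, in which a lone library is assumed to vary like the others, the calls ranged from 489 to 1806, positive from 477 to 1437, negative from 6 to 369, treated alone from 314 to 1485, untreated alone from 15 to 47, both from 115 to 199, neither from 12 to 75 and the median from 0.06 to 0.16. The crossed genes were still called in each leave-one-out fit, though some left their class, and every other class lost calls in each. Scaling to nuclear genes without MALAT1, chosen after seeing the data, called 597 genes, 32 of them negative, and 596 of them were among the 758. The cause of these changes was not tested.

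The replicate numbers are not said to mark a shared culture. Libraries of the 2 fractions with the same number deviated together (correlation over genes 0.43 in treated and 0.35 in untreated cells), and across treatments they did not (-0.09 to 0.08). A fit blocked on that number called 883. A block for each pair of fractions, by treatment and number, called 3850 genes, 2739 positive and 1111 negative, with 2859 in the treated, 289 in the untreated, 491 in both and 211 in neither class, and all 758 were among them. No called named gene turned its sign under an alternative, while the uncalled HIST1H2AC, HIST1H2BD, MT-CO2, MT-ND4 and NEAT1 did. Of 104 named genes called, a threshold of 0.01 lost 19, no filter 16, scaling to nuclear genes 9, quantile normalization 6, limma-voom 5, median-of-ratios size factors 3 and leaving out single libraries between 1 and 18, the most without selumetinib CCNB1-positive replicate 1. The pair block added 5. With 2 libraries per group, genes with few reads in selumetinib CCNB1-negative cells carry counting error besides.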
